A study of Rattus norvegicus with 3 samples.

Results

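The cells described here are collagen-rich, fibroblast-like cells recovered with dissociated rat embryonic cerebral cortex, of which most but not all carried genes of meningeal fibroblasts. A cell was taken as a member when it held at least 10 unique molecular identifiers (UMIs, one per captured transcript) of the fibrillar collagen genes Col1a1, Col1a2 and Col3a1 together, at least 1 UMI of Dcn, Lum, Foxc1 or Slc6a13, and at most 1 UMI of the endothelial genes Cldn5 and Pecam1. The members were chosen by these 9 genes, so their values are given as a description and with no test. The rule was met by 142 of 15327 barcodes that passed the filters of at least 1000 detected genes and at most 10% mitochondrial UMIs: 1 cell in the library labelled E14, 108 in that labelled E16 and 33 in that labelled E18.

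The meninges are the sheets of connective tissue around the brain. Their fibroblasts form the pia on the brain surface, the arachnoid with its barrier of tight and gap junctions, and the dura under the skull. In the embryo they lay down collagens and the basement membrane to which radial glia attach, and they secrete retinoic acid, the chemokine CXCL12 and bone morphogenetic proteins, to which cortical progenitors and migrating neurons respond. Pericytes, the mural cells of small vessels, share collagens and the transcription factor Foxc1 with them.

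The 3 libraries were made from the cerebral cortex of wild-type rats at embryonic days 14, 16 and 18, 1 library per age, from freshly dissociated tissue treated with papain, with the 10x Genomics 3′ v3.1 chemistry. The labels also carry a protocol of cell multiplexing and of sorting live human cells from an expansion culture, which does not match rat tissue; the sort, if any was used on these cells, is not known. The labels name neither the number of embryos nor whether the meninges were left on the tissue. With 1 library per age there is no replicate and no test, and every interval below covers counting error of 1 library only. Intervals of levels and ratios treat each UMI as independent and do not cover the spread between cells.

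The libraries hold 7100, 6707 and 6937 barcodes and 62740631, 80974234 and 73727823 UMIs in label order, and 4444, 5193 and 5690 barcodes were kept. Several measures of stage do not run in label order. Among globin UMIs the embryonic forms made up 2.57%, 67.4% and 22% in label order. In the other kept cells Hmga2, high in early progenitors, stood at 1.60, 175 and 10.4 UMIs per 1000000 (CPM), and Aldoc, of later radial glia and astrocytes, at 154, 16.9 and 143 CPM. The libraries are therefore named by their labels, and no direction of age is drawn from them. Between 8 and 9 kept barcodes were shared by each pair of libraries, none of them a member.

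Members made up 0.0225% of the kept cells labelled E14 (exact binomial 95% interval 0.00057 to 0.125), 2.08% of those labelled E16 (1.71 to 2.51) and 0.580% of those labelled E18 (0.400 to 0.814). The share labelled E16 lies above both others, beyond counting error. Age, dissection and library are 1 and the same division here and cannot be told apart. Choroid plexus cells likewise made up a larger share in the E16 label (72 cells, 1.39%, 1.09 to 1.74) than in the E18 label (38 cells, 0.668%, 0.473 to 0.916). The 2 barcodes labelled E14 that met the choroid plexus markers had no UMI of Ttr and 171 and 304 neuronal UMIs, and are not read as such cells. Endothelial cells made up 0.180%, 0.327% and 0.211% (8, 17 and 12 cells) and mural cells 0.113%, 0.154% and 0.141% (5, 8 and 8 cells), with overlapping intervals.

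Not all members carried the gene content of the name. In 17 members (1, 6 and 10 in label order) the pericyte genes Rgs5, Kcnj8, Abcc9 and Cspg4 held at least 3 UMIs; the remaining 125 (0, 102 and 23) held fewer than 3, and no member held 3 to 5. This division was made after the values had been seen. The pericyte-rich members carried 6 to 35 pericyte UMIs in the library labelled E16 (median 8.5) and 9 to 77 in that labelled E18 (median 21), and the single cell labelled E14 carried 37. All 17 entered through Foxc1; none had a UMI of Dcn and 1 had Lum. Pdgfrb, the receptor that marks pericytes, was detected in all 17 and Pdgfra, its fibroblast counterpart, in 1. Pdgfrb was also detected in 72 of the 102 pericyte-poor members labelled E16 and in 17 of the 23 labelled E18. Pdgfra was detected in 75 and 16 of them. Detection of Pdgfrb alone thus does not separate the classes. By the pericyte genes and the rarity of Dcn, Lum and Pdgfra, 16 of the 17 are pericyte-like, among them the cell labelled E14. The other, labelled E18, had Abcc9 alone of the 4 pericyte genes (9 UMIs) with 138 neuronal UMIs, 25 of Col1a1 and 2 of Lum. The library labelled E14 thus held 0 of 4444 pericyte-poor members, which allows a share of up to 0.0675% by the limit of 3 counts and 0.0830% by the exact binomial interval. The pericyte-poor members were 1.96% of kept cells labelled E16 (1.60 to 2.38) and 0.404% of those labelled E18 (0.256 to 0.606).

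**Figure D1:**
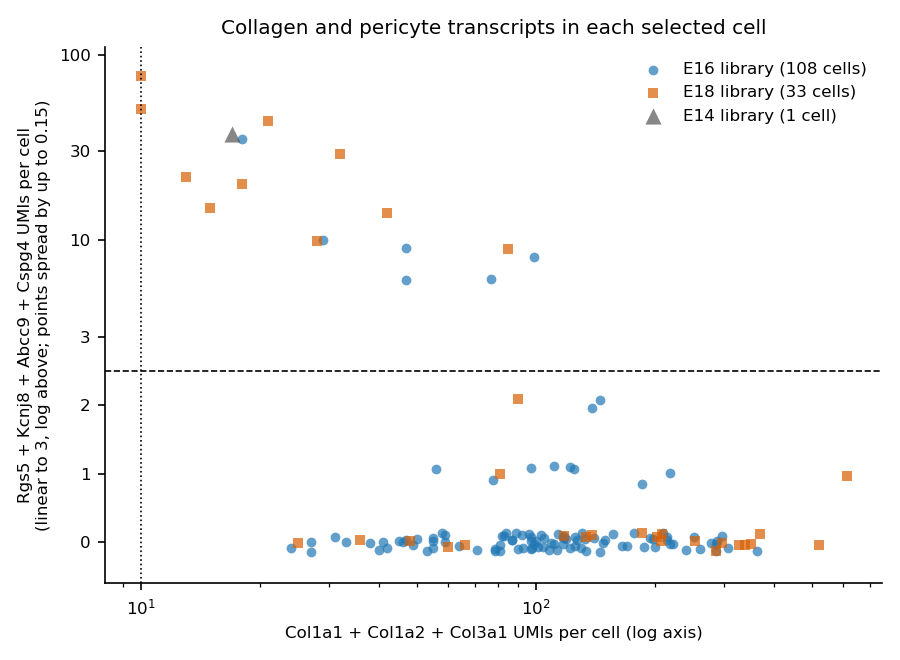
Fibrillar collagen UMIs (Col1a1, Col1a2 and Col3a1 summed) against pericyte UMIs (Rgs5, Kcnj8, Abcc9 and Cspg4 summed) in each member, 1 point per cell, coloured by library, with the values that divide the members drawn as lines. No member lies between 3 and 5 pericyte UMIs, and the pericyte-rich members reach at most 99 collagen UMIs whereas pericyte-poor members reach 612.

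The fibrillar collagens, the genes of the rule, differed between these classes as well. The pericyte-poor members held 24 to 362 collagen UMIs labelled E16 (median 108.5) and 25 to 612 labelled E18 (median 203). The pericyte-rich members held 18 to 99 (median 47) and 10 to 85 (median 19.5). Every member at the edge of the rule was pericyte-rich: the 7 members with 10 to 19 collagen UMIs (1, 1 and 5 in label order) carried 15 to 77 pericyte UMIs. Just under the minimum, with 5 to 9 collagen UMIs, stood 6 more barcodes (1, 2 and 3). One of them, labelled E18, held 262857 UMIs and 11082 genes, far more than any member.

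Dcn and Slc6a13 were found in a larger share of pericyte-poor members in the E18 label, and Lum and Foxc1 in most cells of both. Lum, a small leucine-rich proteoglycan of collagen fibrils, was found in 100 of 102 such cells labelled E16 and in 23 of 23 labelled E18. Foxc1, the forkhead factor required for meningeal development, was found in 90 and 22, and Dcn, the proteoglycan decorin, in 70 and 23. Slc6a13, a GABA transporter of meningeal cells, was found in 4 and 8. Markers of other cell types were mixed in the pericyte-poor members. The mural genes that did not divide the members (Notch3, Myh11, Acta2, Tagln and Vtn) summed to 142 CPM labelled E16, where 1 cell held 103 of their 212 UMIs, and to 167 CPM labelled E18; the pericyte-rich members held 1554 CPM, with 103 of 144 UMIs in 1 cell, and 618 CPM. Without the highest cell of each set the values were 73.6 and 133 CPM in pericyte-poor members and 538 and 488 CPM in pericyte-rich ones. The 5 choroid plexus markers summed to 20.7 and 54.7 CPM, and microglial markers to 9.37 and 9.52. Radial glial markers summed to 304 and 635 CPM, against 1301 and 1141 in the other kept cells. Surface epithelial markers summed to 42.8 and 83.3 CPM and cartilage and bone markers to 131 and 19 CPM, against 2.02 and 10.5 and against 62.3 and 53.5 CPM in the other kept cells. The neuronal list summed to 342 and 764 CPM, with 10 or more neuronal UMIs in 7 and 3 cells, and 1 cell of each library was rich in globin (59.9% and 35.7% of its UMIs). Removing those cells, a step chosen after seeing the data, is given in the closing section.

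Depth per cell overlapped widely between the libraries labelled E16 and E18, which have enough members to compare. Members labelled E16 held 2546 to 49411 UMIs per cell (median 12831) and those labelled E18 2406 to 47411 (median 16731). Levels below are CPM: the gene's UMIs summed over the cells, per 1000000 of all their UMIs, with counting intervals of 95%. These are 3′ counts that do not scale with gene length, and levels of 1 gene are not set against those of another. Differences are log2 of the ratio of (CPM + 10), the library labelled E18 over that labelled E16, and a gene is counted as higher or lower at 2-fold or more on that scale. Among genes with at least 20 CPM in the higher library outside the rule, 4.74% of 6935 were higher and 1.53% lower in the E18 label when only pericyte-poor members were summed, and 4.55% and 1.25% of 6965 over all members. From 50 CPM up, the shares over all members were 4.66% of 3474 higher and 1.32% lower. The median over all these genes was 0.07. Values are of the pericyte-poor members unless all members are named, since otherwise the pericyte-rich members, 10 of 33 in the one library and 6 of 108 in the other, enter the difference.

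Genes of the arachnoid barrier and genes of solute transport and cell junctions had the largest median differences of the 18 lists, both towards the E18 label. Of the 6 arachnoid genes that passed the minimum, out of 9 listed, 4 were higher in the E18 label and none lower, with a median log2 difference of 2.04 (1.57 over all members). Of 15 transporters and junction genes, out of 28 listed, 9 were higher and none lower, with a median of 1.22. Over all members 10 were higher and 1 lower of 16. The lists share genes, and Cldn11 and Gjb6 are among the higher genes of both. Ptgds is counted again with the secreted signals and Aldh1a2 with the retinoic acid genes. Both medians stand above the 0.07 of all genes, and the counts above the 4.74% of all genes that were higher. Their size depends on the processing: over the 16 alternatives of the closing section they ran from 0.60 to 2.21 and from 0.56 to 1.51. Summed over its 9 genes the arachnoid list stood at 359 and 1468 CPM in pericyte-poor members. It was higher in the E18 label in endothelial cells too (166 and 620 CPM), where Ptgds and Crabp2 held nearly all of it. In choroid plexus cells the arachnoid list stood at 1433 and 1443 CPM, mostly Crabp2 (1423 and 1193 CPM). The endothelial set itself held choroid plexus markers at 7040 and 38502 CPM. Their UMIs reached 2500 and 11230 in 1 cell, with a median cell of 0 and 1. The part of such cells in the endothelial values was not tested. Summed transporters and junctions stood at 1354 and 3518 CPM in pericyte-poor members, 2730 and 2727 CPM in endothelial cells, and 676 and 709 CPM in choroid plexus cells.

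Cldn11, the claudin of the arachnoid barrier, stood at 41.5 CPM (31.8 to 53.2) in the E16 label and 452 CPM (390 to 521) in the E18 label, a ratio of 10.9 (8.14 to 14.8). Gja1, the gap junction protein connexin 43, stood at 373 and 1258 CPM, a ratio of 3.37, and Gjb6, connexin 30, at 23.4 and 140 CPM, a ratio of 5.99. The junction scaffold Tjp1 (50.9 and 119 CPM) was also more than 2-fold higher. The cadherins Cdh2 (30.8 and 42.8 CPM) and Cdh11 (390 and 205 CPM) were within 2-fold. Over all members Cdh2 was higher in the E18 label (35.3 and 84.9 CPM) and Cdh11 lower (373 and 168 CPM). Cdh5, the cadherin of endothelial junctions, had 3 UMIs in the E16 label and 19 in the E18 label. The ratio was 22.5, with a counting interval of 6.63 to 119. The cells had no UMI of Cldn5 or Pecam1, but the rule that chose them had already limited both genes. Their absence therefore says nothing about the source of Cdh5, which was not tested.

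Among transporters, Slc22a6, an organic anion transporter, stood at 14.1 CPM (8.7 to 21.5) in the E16 label and 209 CPM (168 to 258) in the E18 label, a ratio of 14.9 (9.17 to 25.2). Slc13a4, a sulfate transporter, had 2 UMIs labelled E16 and 82 labelled E18, a ratio of 146 with an interval of 39.1 to 1220. The bicarbonate transporter Slc4a4 stood at 18.1 and 97.5 CPM and the amino acid transporter Slc1a5 at 14.7 and 47.6 CPM. Slc7a11, the cystine transporter, differed less, with 206 and 324 CPM and a log2 difference of 0.63. Slc6a13, a gene of the rule, stood at 3.35 and 85.6 CPM. Slc7a5, the large amino acid transporter of vessels, stood at 4.4 and 51.3 CPM over all members but at 4.0 and 7.1 CPM in pericyte-poor ones.

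Ptgds, the prostaglandin D synthase of arachnoid cells, had no UMI in the 102 cells labelled E16 and stood at 245 CPM (200 to 297) labelled E18, at least 97.5-fold higher by the exact counting interval of the ratio. Clec3b, a secreted C-type lectin, likewise had 0 UMIs against 214 CPM, at least 84.9-fold higher by the same interval. Set against a floor of 3 UMIs over the E16 cells instead, the folds are 122 and 107. Ptgds differed in the same direction in other cells. It stood at 4.1 and 247 CPM in choroid plexus cells. In endothelial cells it stood at 220 CPM in the E18 label, with no UMI in the E16 label. That endothelial set was mixed: its choroid plexus markers summed to 38502 CPM in the E18 label, against 7040 CPM in the other. Whether its Ptgds came from choroid plexus transcripts was not tested. Choroid plexus cells labelled E18 held Slc13a4 at 151 CPM but no UMI of Clec3b or Cldn11. The plot of layer and transport genes by library gives these levels beside those of Crabp1, which had the opposite order.

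**Figure D2:**
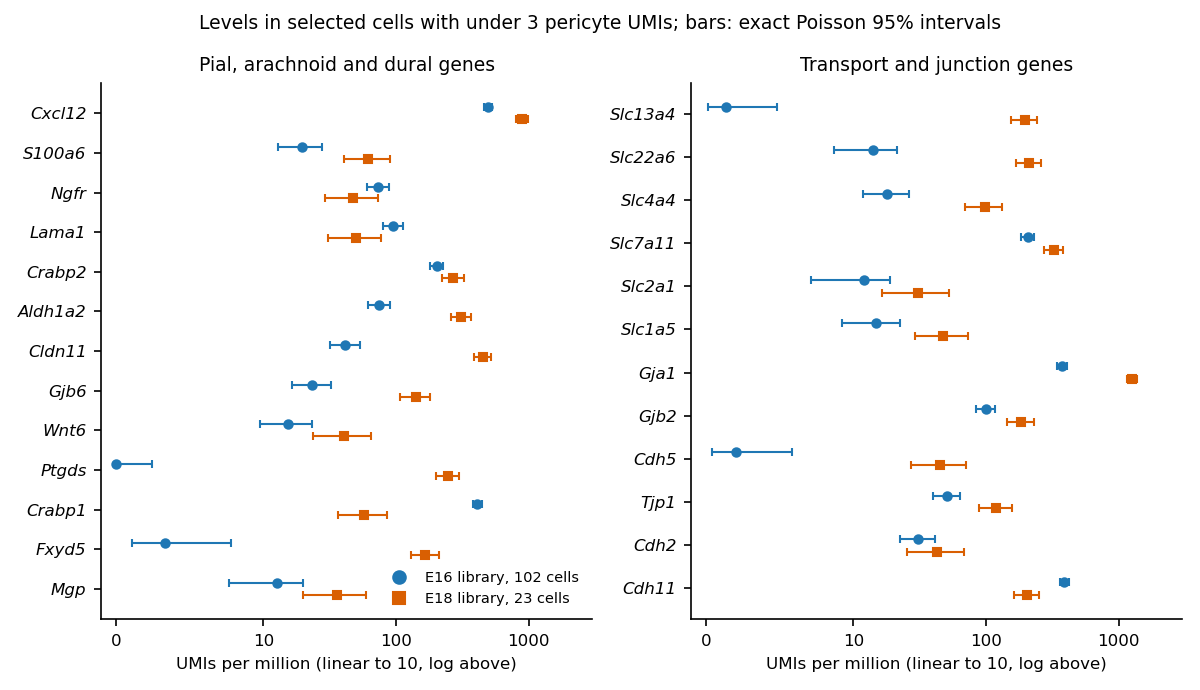
Levels of layer and transport genes in pericyte-poor members of the libraries labelled E16 (102 cells) and E18 (23 cells), in CPM (axis linear to 10 and logarithmic above), with exact Poisson 95% intervals for counting error. Cldn11, Slc22a6 and Gja1 are higher in the E18 label and Crabp1 is lower, with intervals that do not overlap.

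Shares of cells with a UMI gave the same order when depth was made equal. With every cell thinned to 3000 UMIs, which left 101 pericyte-poor cells labelled E16 and 22 labelled E18, Cldn11 was found in 11.9% and 50% (34.3% and 82.6% before thinning), Slc22a6 in 4.95% and 40.9%, and Aldh1a2 in 18.8% and 45.5%. Neuronal cells, which should lack Cldn11, gave 0% and 0.153% at the same depth, with median depths of 9802 and 9702 UMIs before thinning. Dcn went from 38.6% labelled E16 to 81.8% labelled E18 (68.6% and 100% before thinning), whereas Lum was found in 88.1% and 54.5%. Among the proteoglycan genes of the rule, the library with more Dcn therefore had less Lum: their levels were 259 and 968 CPM for Dcn and 1179 and 592 CPM for Lum.

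The promoters of Cldn11, Slc13a4 and Ptgds are printed because these genes were higher in the E18 label, and that of Col1a2 beside them as a collagen of the rule, which was high in both libraries. They are the 250 bases before the annotated start in RefSeq on the build GRCr8, 5′ to 3′ on the gene's strand, and 4 of 8 genes looked up were in the table. Capitals mark CCAAT on either strand (CCAAT or ATTGG), a short motif common near starts, which 11385 of 33469 windows of this length hold at least once (34.0%) and 9.42% hold at least 2 times. Col1a2, a collagen of the rule, is on the plus strand at chr4:33518307-33518556. Cldn11 is on the minus strand at chr2:114149540-114149789, Slc13a4 on the minus strand at chr4:64955987-64956236, and Ptgds on the minus strand at chr3:28682979-28683228.
Col1a2: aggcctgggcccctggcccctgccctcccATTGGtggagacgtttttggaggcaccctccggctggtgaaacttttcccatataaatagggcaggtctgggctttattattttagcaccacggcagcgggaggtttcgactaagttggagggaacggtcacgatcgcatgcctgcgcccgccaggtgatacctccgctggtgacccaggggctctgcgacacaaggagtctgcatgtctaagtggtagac
Cldn11: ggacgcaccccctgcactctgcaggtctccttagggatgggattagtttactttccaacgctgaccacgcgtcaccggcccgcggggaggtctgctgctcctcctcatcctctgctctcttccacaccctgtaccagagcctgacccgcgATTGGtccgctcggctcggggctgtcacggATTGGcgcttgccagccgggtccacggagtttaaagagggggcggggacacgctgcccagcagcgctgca
Slc13a4: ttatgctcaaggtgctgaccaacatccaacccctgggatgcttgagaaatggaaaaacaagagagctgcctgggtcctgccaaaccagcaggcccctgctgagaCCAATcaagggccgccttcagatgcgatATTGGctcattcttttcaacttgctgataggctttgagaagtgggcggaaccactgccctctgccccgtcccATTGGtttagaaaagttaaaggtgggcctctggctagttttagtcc
Ptgds: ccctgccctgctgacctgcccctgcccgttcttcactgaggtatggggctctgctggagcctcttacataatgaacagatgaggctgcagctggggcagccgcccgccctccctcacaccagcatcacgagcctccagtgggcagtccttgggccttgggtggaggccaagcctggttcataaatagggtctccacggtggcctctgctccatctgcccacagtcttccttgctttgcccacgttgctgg
The Col1a2 window holds 1 match, 221 bases before the start. The Cldn11 window holds 2, at 100 and 70 bases, the Slc13a4 window 3, at 146, 118 and 46 bases, and the Ptgds window 0. A match describes letters in the window and is no evidence of a site.

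Within the library labelled E18 the arachnoid and transport genes were not spread evenly. Ptgds was found in 6 of the 23 pericyte-poor cells, with 1 to 48 UMIs per cell, and 46.6% of its UMIs were in 1 cell. Those 6 cells held 79 of the 82 UMIs of Slc13a4, 83 of the 90 of Clec3b and 73 of the 88 of Slc22a6. The split by Ptgds was made after its values had been seen, and all cells come from 1 library, so the values that follow are a description. Slc13a4 stood at 573 CPM in the cells with Ptgds and 10.6 CPM in the others, Clec3b at 602 and 24.8 CPM, and Slc22a6 at 529 and 53.1 CPM. The retinoic acid enzymes Aldh1a2 (660 and 138 CPM) and Rdh10 (449 and 63.7 CPM), the chemokine Cxcl12 (1413 and 637 CPM), Ranbp3l (602 and 216 CPM) and the keratin Krt8 (203 and 17.7 CPM) were higher in the same cells. Much of this rested on 1 cell per gene: without the cell that held most UMIs, the level in the cells with Ptgds was 811 CPM for Cxcl12, 425 CPM for Aldh1a2, 277 CPM for Rdh10 and 116 CPM for Krt8. Slc13a4, Clec3b and Slc22a6 then stood at 488, 444 and 463 CPM.

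Fxyd5, a regulator of the sodium pump listed here with dural genes, had 2 UMIs in the cells with Ptgds and 68 in the rest. Lum stood at 254 CPM with Ptgds and 758 without. Cldn11 (384 and 485 CPM) was high in both. The cells with Ptgds were deeper, with a median of 19165.5 UMIs against 12786, and the part of depth in which cells showed Ptgds was not tested.

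**Figure D3:**
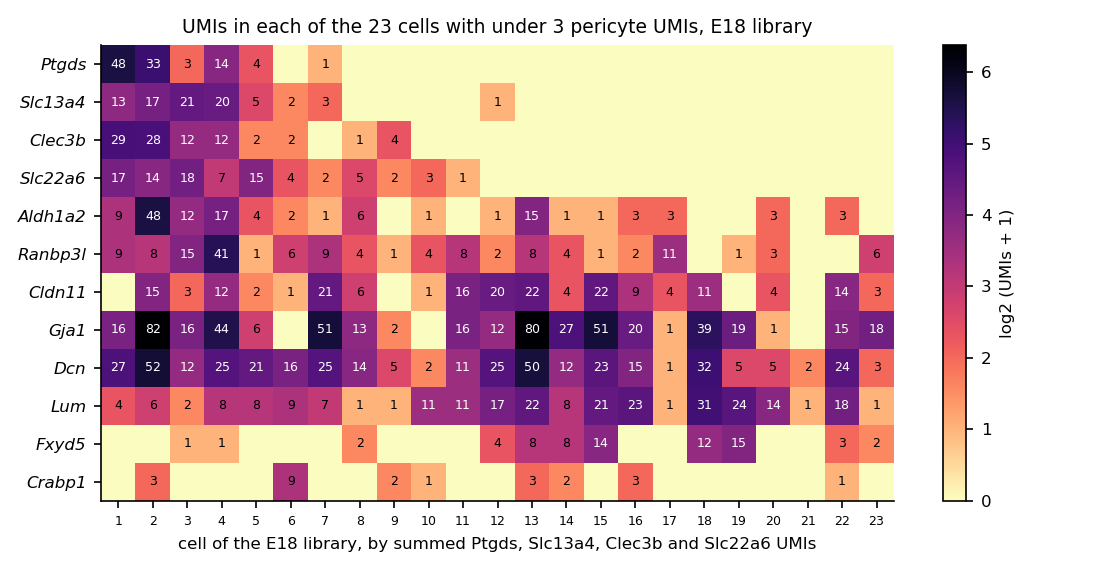
UMIs of arachnoid, transport and other genes in each of the 23 pericyte-poor cells of the library labelled E18, 1 column per cell, ordered by their summed UMIs of Ptgds, Slc13a4, Clec3b and Slc22a6. The first 5 columns carry 26 to 107 of these UMIs and the others at most 8, while Dcn is present in all 23.

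UMIs of several layer lists were often found in the same cell. At least 2 UMIs of each of the pial, arachnoid and dural lists were found together in 79 of 102 cells labelled E16 and in 16 of 23 labelled E18, and every cell had at least 2 UMIs of some list. The median cell held 14.5 pial, 4 arachnoid and 6 dural UMIs in the E16 label and 19, 17 and 7 in the E18 label. These counts were not thinned, and the share of other cells that reach 2 UMIs was not taken. In the other kept cells the arachnoid list stood at 179 and 93.7 CPM, against 359 and 1468 CPM in pericyte-poor members. The pial list stood at 28.1 and 48.2 CPM there, against 1225 and 1684, and the dural list at 98.3 and 122, against 649 and 554. Expression of several lists by 1 cell was thus not tested, and no cell is given a layer name here. Of 7 pial genes that passed the minimum 1 was higher in the E18 label, S100a6 (19.4 and 61.8 CPM), and none lower, where 4.74% and 1.53% of all genes were, which for a list of this size is no result about the list. Over all members none was higher and 1, Lama1, lower. Of 5 dural genes 2 were higher (Fxyd5 and Mgp) and 1 lower (Crabp1), the same count as over all members, against those shares of all genes.

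Fxyd5 stood at 3.35 CPM (5 UMIs) in the E16 label and 167 CPM (130 to 210) in the E18 label, a ratio of 49.8 (20.3 to 158). Crabp1, a cellular retinoic acid binding protein, stood at 410 CPM (378 to 443) in the E16 label and 57.1 CPM (36.6 to 84.9) in the E18 label, a ratio of E16 over E18 of 7.17 (4.78 to 11.3). At 3000 UMIs Crabp1 was found in 49.5% of cells labelled E16 and 9.09% of those labelled E18 (71.6% and 34.8% before thinning), against 0.143% and 0.276% of neuronal cells. Mgp, the matrix Gla protein, passed 2-fold by little (12.7 and 35.7 CPM), and without the 1 cell that held 7 of its 15 UMIs it stood at 19.4 CPM in the E18 label, under 2-fold. Its larger difference over all members (30.9 and 335 CPM) moved with the pericyte-rich members, at 324 and 951 CPM. There 1 cell held 121 of the 194 UMIs labelled E18, and the level without it was 399 CPM, or 146 CPM over all members.

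Of 11 genes that make, import, bind or sense retinoic acid, 3 were higher in the E18 label (Aldh1a2, Dhrs3 and Stra6) and 1 lower (Crabp1), where 4.74% and 1.53% of all genes were, with a median log2 difference of 0.39. Over all members Aldh1a2 alone was higher and Crabp1 lower, and the median was -0.03, so the list's direction rests on leaving out the pericyte-rich members. Aldh1a2, the enzyme that makes retinoic acid from retinaldehyde, stood at 75.0 CPM (61.7 to 90.2) and 309 CPM (258 to 367), a ratio of 4.13 (3.18 to 5.36). Stra6, the retinol importer, stood at 41.5 and 131 CPM, a ratio of 3.15. Rdh10, which oxidises retinol, stood at 108 and 190 CPM and did not pass 2-fold. The cellular retinoic acid binding proteins differed from each other: Crabp2 stood at 202 and 269 CPM, within 2-fold, and Crabp1 was the lower one. In the pericyte-rich members Aldh1a2 and Stra6 had no UMI in either library. The receptors Rara (52.9 and 40.4 CPM) and Rarb (63.6 and 47.6 CPM) differed by less than 2-fold.

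In the E16 label Crabp1 and Aldh1a2 each marked part of the cells. Crabp1 was found in 73 of 102, at 563 CPM, and Aldh1a2 in 47. Cells with Crabp1 held more Ngfr (89.3 CPM with and 31.9 without), Cxcl12 (586 and 245) and Rdh10 (125 and 61.3), and less Col1a1 (1507 and 2403). Cells with Aldh1a2 held more Dcn (357 and 164 CPM) and Ogn (454 and 301). These splits, too, were chosen after the values had been seen.

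Of 24 secreted signals that passed the minimum, out of 48 listed, 7 were higher in the E18 label and 1 was lower, where 4.74% and 1.53% of all genes were, with a median log2 difference of 0.49. Over all members 5 were higher and 2 lower of 22, with a median of 0.33. Cxcl12, the chemokine that holds Cajal-Retzius cells and interneurons at the surface, stood at 493 CPM (458 to 530) and 892 CPM (804 to 987), a ratio of 1.81. At 3000 UMIs it was found in 63.4% and 72.7% of cells, against 4.56% and 12.1% of neuronal cells. The pair of related growth factors pleiotrophin and midkine had opposite order: Ptn stood at 954 and 2676 CPM, and Mdk at 2200 and 954 CPM. Edn3, endothelin 3, stood at 66.3 and 257 CPM. Bone morphogenetic proteins differed by member: Bmp6 (9.4 and 57.1 CPM) and Bmp7 (40.2 and 99.9 CPM) were higher in the E18 label, while Bmp4 (74.3 and 126 CPM) and Bmp5 (48.2 and 61.8 CPM) did not pass 2-fold. The 12 UMIs of Inhba in the E18 label came from 1 cell.

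Inhibitors and binding proteins of signals showed 2 genes higher and 2 lower of 13, where 4.74% and 1.53% of all genes were. Over all members 3 were higher and 2 lower of 14, against 4.55% and 1.25% of all genes. Igfbp2, an insulin-like growth factor binding protein, stood at 494 and 1684 CPM, a ratio of 3.41. All 91 UMIs of Igfbp3 in the E18 label were in 1 cell. The Wnt antagonist Frzb stood at 130 and 54.7 CPM and Bambi, a decoy receptor for transforming growth factor beta signals, at 52.2 and 14.3 CPM. Sfrp1, another Wnt antagonist, differed little (753 and 833 CPM). Igfbp7, whose level over all members was 88.2 and 543 CPM, stood at 52.9 and 71.4 CPM without the pericyte-rich members, which held it at 658 and 1515 CPM.

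Growth factor receptors had the smallest median difference among the signalling lists. Of 25 receptors 1 was higher (Fgfr3, 9.4 and 30.9 CPM) and 1 lower (Nrp2, the semaphorin and growth factor co-receptor, 264 and 124 CPM), a share near the 4.74% and 1.53% of all genes, with a median log2 difference of 0.14. Without the neuronal and globin-rich cells neither passed, with 0 of 23 receptors in each direction. Pdgfra stood at 104 CPM (88.7 to 122) and 138 CPM (105 to 178), with overlapping intervals. Pdgfrb stood at 119 and 92.8 CPM, against 507 and 588 CPM in the pericyte-rich members.

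Set side by side in the plot of the list genes, the arachnoid list and the transporters and junctions lie furthest towards the E18 label, the receptors and the basement membrane near the median of all genes, and the replication genes furthest towards the E16 label.

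**Figure D4:**
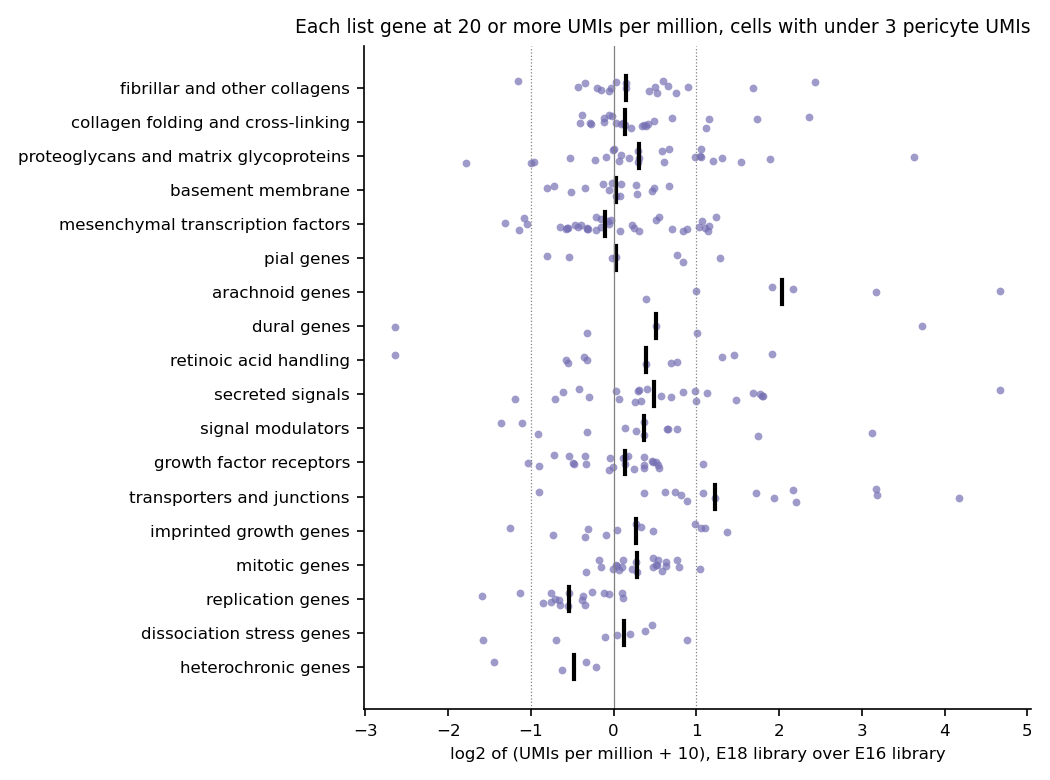
Log2 difference of (CPM + 10), library labelled E18 over that labelled E16, for the genes of each list with at least 20 CPM in the higher library, in pericyte-poor members; each point is 1 gene and the bar is the list's median. Arachnoid genes have a median of 2.04 and transporters and junctions 1.22, against 0.07 for all genes.

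Collagens were high in both libraries. Over the other kept cells, which is a description since the collagens chose the members, 16 of 18 listed collagens were higher in the E16 label and 16 of 17 in the E18 label, where 11.8% and 14.3% of all genes were. Between the libraries 2 of 19 collagens were higher in the E18 label and 1 lower, as over all members, where 4.74% and 1.53% of all genes were. Col8a1, a short-chain collagen, stood at 10.7 and 102 CPM and Col13a1, a membrane collagen, at 28.8 and 114 CPM. Col9a3, a cartilage collagen, stood at 22.8 and 4.8 CPM. Col5a2, which starts collagen fibrils, was nearly level at 828 and 811 CPM. The collagens of the rule stood at 1752 and 3078 CPM for Col1a1, 2019 and 3159 CPM for Col1a2, and 4722 and 5547 CPM for Col3a1. Col2a1, the main cartilage collagen, was named by its rank among all genes: it stood at 110 and 9.52 CPM, a ratio of E16 over E18 of 11.5.

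Of 23 genes that fold and link collagen 4 were higher in the E18 label and none lower, where 4.74% and 1.53% of all genes were. Over all members 2 of 22 were higher. Lox, which cross-links collagen and elastin, stood at 16.1 and 124 CPM, a ratio of 7.70. P4ha2, a prolyl hydroxylase subunit, stood at 30.1 and 124 CPM, while its paralogue P4ha1 stood at 93 and 69.0 CPM. Sparc, a collagen-binding glycoprotein, stood at 1030 and 2253 CPM. The collagen chaperone Serpinh1 stood at 962 CPM (913 to 1013) and 1111 CPM (1012 to 1216), within 2-fold.

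Proteoglycans and matrix glycoproteins had 8 genes higher and 2 lower of 26, where 4.74% and 1.53% of all genes were, with a median log2 difference of 0.30. Over all members the balance was 3 higher and 3 lower of 25, with a median of 0.15. Prelp, a leucine-rich proteoglycan that anchors basement membranes, stood at 7.4 CPM (3.68 to 13.2) and 205 CPM (164 to 253), a ratio of 27.8. Ogn, osteoglycin, stood at 376 and 787 CPM, elastin (Eln) at 24.1 and 117 CPM, and Sparcl1 at 148 and 450 CPM. Cthrc1 (89.7 and 19 CPM) and the glycoprotein tenascin C (Tnc, 48.2 and 19 CPM) were lower, Tnc not once cells with neuronal UMIs or globin were removed. Fibronectin (Fn1, 857 and 863 CPM), fibulin 1 (Fbln1, 1025 and 959 CPM) and versican (Vcan, 500 and 523 CPM) were nearly level.

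Of 15 basement membrane genes none was higher or lower, which at the 4.74% and 1.53% of all genes is no result about the list. Over all members 2, Lama1 (93.3 and 35.2 CPM) and Frem1 (50.4 and 19.2 CPM), were lower in the E18 label. Laminins Lamb1 (207 and 255 CPM) and Lamc1 (167 and 178 CPM), nidogens Nid1 (351 and 423 CPM) and Nid2 (287 and 400 CPM), and Col4a1 (1074 and 840 CPM) were all within 2-fold. Over the other kept cells 14 of the 15 were higher in both libraries, where 11.8% and 14.3% of all genes were, a description since collagens chose the members. Mural cells held more of several of them, with Col4a1 at 1673 and 1620 CPM and Nid1 at 743 and 865 CPM, whereas Nid2 stood at 45 and 39 CPM there.

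**Figure D5:**
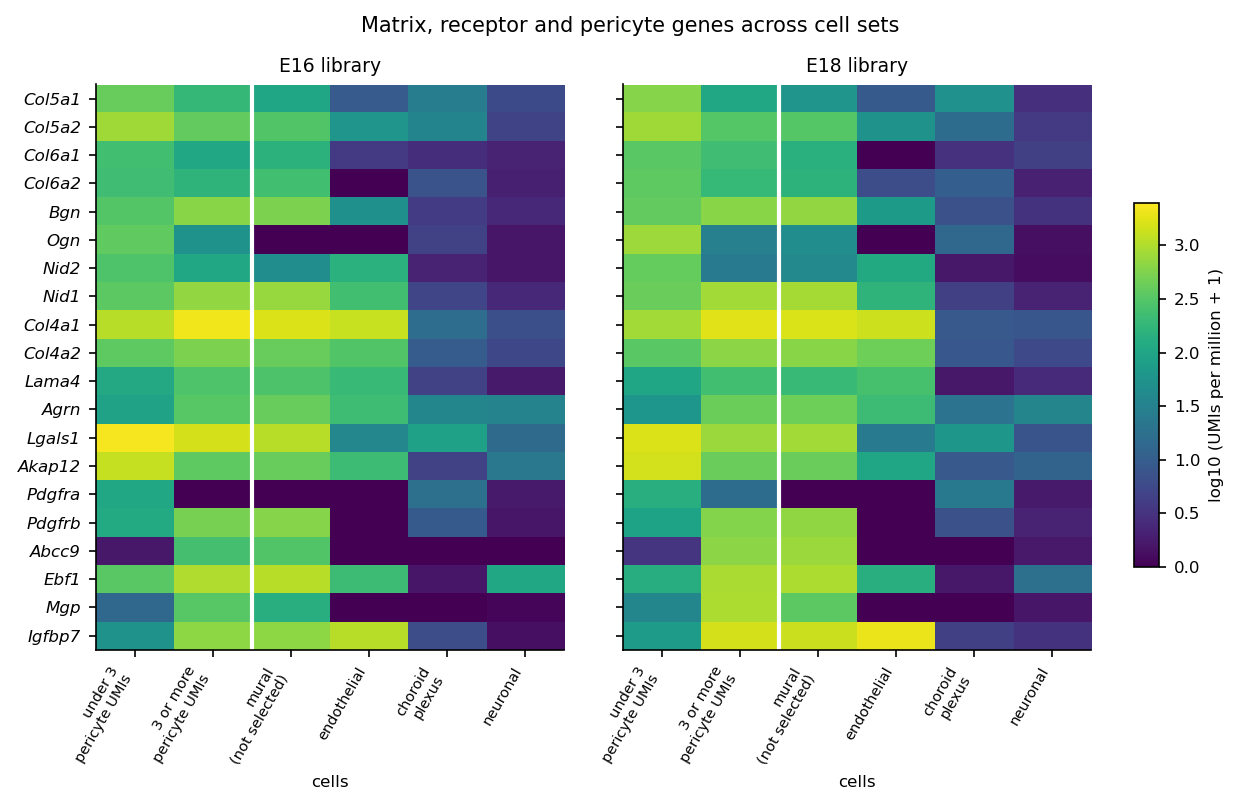
Levels of matrix, receptor and pericyte genes, as log10 of (CPM + 1) by colour, in 6 sets of cells (pericyte-poor members, pericyte-rich members, mural, endothelial, choroid plexus and neuronal cells) of the libraries labelled E16 and E18. Col4a1 and Nid1 are higher in mural cells and pericyte-rich members than in pericyte-poor members, while Nid2, at 287 and 400 CPM in pericyte-poor members, stands at 45 and 39 CPM in mural cells.

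Of the 15 genes ranked furthest above the other kept cells, several belong to the matrix lists. Lgals1, galectin 1, stood 92.5-fold above the other kept cells in the E16 label and 124-fold in the E18 label, Akap12, a kinase anchor, 98.6-fold and 165-fold, and S100a11 89.2-fold and 80.1-fold. Ogn was 603-fold and 848-fold above. These folds compare a selected set with the rest and carry no test.

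Transcription factors of mesenchyme differed in both directions, with 6 of 36 higher, 4 lower and a median of -0.11, against 4.74% and 1.53% of all genes. Over all members 3 were higher and 3 lower. Osr1 (87.7 and 200 CPM), Eya2 (20.7 and 54.7 CPM), Klf4 (24.1 and 59.5 CPM) and Heyl (17.4 and 54.7 CPM) were higher in the E18 label. Of the 23 UMIs of Heyl in the E18 label 12 were in 1 cell, and without it the level was 28.7 CPM, under 2-fold. Tcf4 and Nfib were also higher, but not once cells with neuronal UMIs or globin were removed. The homeobox genes Prrx2 (181 and 76.1 CPM) and Alx1 (25.4 and 7.1 CPM), which act in head mesenchyme, were lower, Alx1 not once those cells were removed. Ebf1 stood at 334 and 128 CPM, a ratio of E16 over E18 of 2.60, but at 372 and 386 CPM over all members, with the pericyte-rich members at 982 and 917 CPM. Among those within 2-fold, Foxd1 stood at 86.3 and 131 CPM, Zic2 at 195 and 245 CPM, Tbx18 at 292 and 214 CPM, and Tfap2b at 271 and 264 CPM.

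Outside the lists, Ranbp3l, a Ran-binding nuclear transport gene, stood at 37.5 CPM (28.3 to 48.7) and 343 CPM (289 to 403), a ratio of 9.14. The transporter Slc16a9 stood at 9.4 and 119 CPM and the transglutaminase Tgm2 at 10.0 and 107 CPM. Several genes that ranked among the highest differences over all members did so with the pericyte-rich ones: Abcc9, a pericyte channel subunit of the set that divides them, stood at 15.1 and 211 CPM over all members and at 0.7 and 2.4 CPM without them, Thy1 at 4.4 and 112 CPM and at 0.7 and 4.8 CPM, and Epas1 at 20.8 and 216 CPM and at 6.0 and 7.1 CPM.

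Imprinted growth genes had 3 of 13 higher and 1 lower (Peg10), where 4.74% and 1.53% of all genes were. Over all members 1 was higher (Dlk1) and 1 lower (Peg10), close to the 4.55% and 1.25% of all genes. Cdkn1c, an inhibitor of the cell cycle, stood at 1824 and 3806 CPM, H19 at 80.3 and 224 CPM, and Igf2, insulin-like growth factor 2, at 323 and 649 CPM, just under 2-fold on the log2 scale (0.98). Peg10 stood at 30.8 and 7.1 CPM. Dlk1 in pericyte-poor members stood at 18.1 and 23.8 CPM, against 313 and 544 CPM in the pericyte-rich members.

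Mitotic genes stood near the share of all genes and 2 replication genes were lower in the E18 label. Of 23 mitotic genes 1 was higher, Prc1, and none lower, with a median log2 difference of 0.28 whose sign changes with the processing, while replication genes had none higher and 2 lower of 18 (Cdc6 and Fen1), where 4.74% and 1.53% of all genes were, with a median of -0.54. Over all members 1 replication gene was lower, Fen1, and the median was -0.34. Mki67, a marker of cycling cells, stood at 171 CPM (151 to 194) and 209 CPM (168 to 258), with overlapping intervals; 1 cell held 49 of its 88 UMIs in the E18 label, where the level without that cell was 104 CPM. The replication clamp Pcna stood at 153 CPM (133 to 174) and 92.8 CPM (66 to 127). At 3000 UMIs, 43 of 101 cells labelled E16 (42.6%, 32.8 to 52.8) and 6 of 22 labelled E18 (27.3%, 10.7 to 50.2) had at least 2 mitotic UMIs. Before thinning the shares were 68.6% and 69.6%, and neuronal cells gave 37.9% and 24.5% at 3000 UMIs, so the shares are not read as cycling.

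Of the genes that follow stage in many embryonic tissues, Hmga2 stood at 134 CPM (116 to 154) and 42.8 CPM (25.4 to 67.7), a ratio of E16 over E18 of 3.13; it was higher in the E16 label in the other kept cells too (175 and 10.4 CPM). The remaining genes of this list that passed the minimum, Hmga1, Igf2bp2 and Igf2bp3, were within 2-fold. Hmga1 was lower in the E18 label once neuronal and globin-rich cells were removed too. Dissociation stress genes had none of 8 higher and 1 lower, Egr1 (69.6 and 16.7 CPM), where 4.74% and 1.53% of all genes were. Over all members 1 of 9 was higher (Junb) and 1 lower (Egr1), and without neuronal and globin-rich cells 1 of 8 was higher (Fos) and 2 lower (Egr1 and Ier2). Jun (217 and 224 CPM) and Hspa8 (528 and 492 CPM) were nearly level.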

How the data were processed

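Single-cell RNA was measured in 3 libraries of rat embryonic cortex. The deposited matrices hold counts of UMIs for 29772 genes per barcode, made by the authors with Cell Ranger 6.0.1, per the file headers and the submitters' processing notes. The genome build was mRatBN7.2, per the submitters' processing notes, and the gene annotation is not given in the sources used here. The deposited matrices hold 7100, 6707 and 6937 barcodes, whose kept cells have medians of 11399.5, 12477 and 10671.5 UMIs.

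From these counts, barcodes with at least 1000 genes and at most 10% UMIs of the 13 mitochondrial genes were kept, without doublet removal; Scrublet scores (scanpy 1.11.5) served as an alternative. UMIs were summed over members per library and given as CPM, the pseudocount was 10 CPM, and intervals are exact Poisson or exact binomial (Clopper-Pearson) at 95%. A library entered a comparison with at least 10 members, which left out the one labelled E14. Genes of 18 lists were counted from 20 CPM, and all genes from 50 CPM as a second setting. UMIs of PCR duplicates are already merged, so the counts are of molecules.

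Named genes were those of the rule, the up to 8 highest of each list and those 2-fold apart, the 12 highest and 12 lowest differences from 100 CPM, and the 15 genes furthest above other cells from 200 CPM; genes of the splits within a library and a few level genes of the lists, and the ranks without pericyte-rich members, were taken after seeing values. The members and lists were chosen with earlier results of these data known. Sequences are RefSeq promoters on GRCr8, read by gene symbol. Endothelial and mural cells were set by at least 3 UMIs of their markers, choroid plexus cells by 2 and neuronal cells by 3. Cells were thinned without replacement to 3000 UMIs. The scripts were tested on simulated data (pandas 2.3.3 and scipy 1.17.1 for the sums and intervals, matplotlib 3.10.9 for the plots, numpy 2.4.6, Python 3.11.15). In all, 16 alternatives were run. Some results are not reported here.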

Additional observations from a re-analysis of the deposited data

Results flagged for a closer look

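Barcodes outside the kept cells also carried the gene content of the members. In the library labelled E16, 25 barcodes that failed the gene or mitochondrial filter met the collagen rule, 23 of them over 10% mitochondrial UMIs, with a median of 2185 UMIs, 19.6% mitochondrial and 27 collagen UMIs. In the library labelled E18 there were 15, all over 10% mitochondrial UMIs, with medians of 2614 UMIs, 16.4% and 23 collagen UMIs. Pericyte UMIs were found in 1 and 2 of them. They were flagged because no value of the report uses them.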

How the results depend on the processing

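The arachnoid median log2 difference, 1.57 over all members, ran from 0.60 to 2.21 over the 16 alternatives, some of which removed members. That of transporters and junctions, 1.24 over all members, ran from 0.56 to 1.51. Replication genes ran from -0.68 to -0.22, stage (heterochronic) genes from -1.11 to -0.18 and dural genes from 0.00387 to 0.95. Stress genes stayed above 0, and the other 12 list medians changed sign in some alternative. Over all members, 162 genes were higher and 46 lower in the E18 label at 50 CPM; the counts were 317 and 87 from 20 CPM and 70 and 21 from 100 CPM. With at least 5 collagen UMIs, a set that takes in the barcode of 262857 UMIs, they were 261 and 89, and medians were -0.31 for the basement membrane, -0.28 for receptors, -0.19 for mitotic and -0.61 for replication genes. With at most 5% mitochondrial UMIs, which left 45 members labelled E16 and 8 labelled E18, shares were 0%, 1.16% and 0.288% in label order, 244 genes were higher and 114 lower, and the receptor median was -0.20. At least 2 second markers gave -0.68 for replication genes. Removing high Scrublet scores gave -0.11 for mitotic genes. Removing members with at least 3 neuronal UMIs gave -0.11 for mitotic genes, -1.11 for stage genes and 80 genes lower; thinning to the smaller library gave -0.18 for stage genes. The share labelled E14 was 0% with at least 20 collagen UMIs, at least 2 second markers, neuronal UMIs removed or pericyte-rich members removed. Removing pericyte-rich, neuronal and globin-rich members, chosen like the previous set after seeing the data, gave 0% labelled E14 and 0.334% labelled E18, and medians of 0.25 for collagen folding and 0.29 for receptors; the arachnoid median was then 2.21. The cause of these shifts was not tested. The remaining 283 values, of 312, moved by less than the spread used to judge them. No paired analysis was possible because each label has 1 library. Ratios that rest on few UMIs in the E16 label have wide counting intervals, which do not cover the spread between cells.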
